A study of Mus musculus with 79 samples.

Results

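Strains of mice differ in how their muscle answers to a fat-rich diet, and 2 groups of strains at the ends of that range are described here in quadriceps. The BXD strains are inbred lines whose founders were the C57BL/6J and DBA/2J strains, so each carries its own fixed mixture of both parental genomes. The series held 79 Affymetrix Mouse Gene 1.0 ST arrays of quadriceps RNA from male mice of 42 strains, and 37 strains had an array both on a chow diet (CD, Harlan 2018) and on a high fat diet (HFD, Harlan 06414). The HFD began at 8 weeks of age, and all mice were fasted overnight before sacrifice at 29 weeks. Each array measured a pool of about 5 mice of 1 strain on 1 diet, so a strain counts as 1 sample, and the spread between mice of a strain and the error of an array cannot be told apart. No strain in either group carried an engineered allele according to the labels. Where a transcript belongs to 1 type of fibre or cell, fewer such cells and less RNA per cell cannot be told apart in these pools.

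The diet response of a gene was its HFD value minus its CD value in a strain, in units of the deposited score, which behaves as a log-type scale with a mean of 8 and an SD of 2 on every array. A responder score was taken for each strain as the mean response of 6 genes of fat oxidation, Acadl, Acadm, Acadvl, Hadha, Hadhb and Cpt1b. The 12 strains with the highest scores of the 37 were called strong responders, the 12 with the lowest weak responders, and the other 13 formed the middle. The strains were therefore chosen on the same HFD minus CD values that are described below, and every strong against weak difference in diet response is a description without a test. Tests were run only on measures other than that contrast, namely the level averaged over both diets, allele-like expression and the array batches.

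Fatty acids enter mitochondria as carnitine esters, a step for which Cpt1b, the muscle form of carnitine palmitoyltransferase 1, is the gatekeeper. Inside, beta oxidation shortens the chain in a repeated cycle. Acyl-CoA dehydrogenases for very long (Acadvl), long (Acadl) and medium chains (Acadm) open each round, and Hadha and Hadhb encode the subunits of the trifunctional protein that completes it for long chains. In muscle this pathway is most active in slow and oxidative fibres, is raised by fasting and fat feeding, and is driven by nuclear receptors of the PPAR and estrogen-related receptor families with the coactivator Ppargc1a.

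The estrogen-related receptors bind the letters TCAAGGTCA, whose core AAGGTCA is shared by many nuclear receptor sites. Both were searched on both strands in 300 bases around each start in a RefSeq promoter table of assembly GRCm38.p6, 250 before the start and 50 after it; every match of the longer motif is also one of the core. The core was present in 4.72% of all 32851 promoters and the longer motif in 0.423%. Counted by gene, with a match in any promoter of the gene, the shares were 5.38% and 0.466% of 27025 genes. The counts for sets of genes below are by gene. Of the 6 score genes 5 had a promoter in the table, and only Acadm held the core. Of the 11 slow fibre genes described below 10 had a promoter, and 2 of them, Myh7b and Tpm3, held the longer motif. Neither motif was present in the 15 other beta oxidation genes with a promoter. The same held for the 10 genes with a promoter whose responses did not overlap between the groups. The respiratory chain had the core in 7 of 65 genes and the longer motif in 1 of 65. In the citric acid cycle 2 and 1 of 15 genes had them. The upstream bases of these 3 promoters are shown because they belong to the pathway that defined the groups and to the gene group that differed most between them, with the matched letters in capitals.
Acadm, chr3:153944644-153944893, minus strand: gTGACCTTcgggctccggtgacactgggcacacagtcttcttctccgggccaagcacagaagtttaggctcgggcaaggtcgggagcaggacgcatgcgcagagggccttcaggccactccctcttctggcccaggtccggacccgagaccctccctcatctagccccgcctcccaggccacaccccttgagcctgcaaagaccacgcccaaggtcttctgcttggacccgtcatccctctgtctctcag
Myh7b, chr2:155610993-155611242, plus strand: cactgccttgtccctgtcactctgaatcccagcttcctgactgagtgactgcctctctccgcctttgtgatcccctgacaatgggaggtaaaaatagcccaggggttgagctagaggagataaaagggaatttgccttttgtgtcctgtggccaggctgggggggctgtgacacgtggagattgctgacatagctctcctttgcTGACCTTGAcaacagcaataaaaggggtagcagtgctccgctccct
Tpm3, chr3:90072401-90072650, plus strand: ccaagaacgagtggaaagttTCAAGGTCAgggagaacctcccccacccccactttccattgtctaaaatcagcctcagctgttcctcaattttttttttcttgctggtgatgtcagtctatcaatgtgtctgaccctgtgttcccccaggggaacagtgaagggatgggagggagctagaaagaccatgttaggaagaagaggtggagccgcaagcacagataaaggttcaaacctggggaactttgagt
In Acadm the capitals read the core on the opposite strand, and in Myh7b the longer motif on the opposite strand. Among the 572 genes set apart with a larger response in strong strains (defined below), 426 had a promoter and 4.46% of those held the core, against 4.54% of the 14355 promoter-bearing genes outside the score. Myh7b and Tpm3 were the 2 slow fibre genes that were not set apart. A match in this window is a description of letters, and an absent match says nothing of sites elsewhere.

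The strong responders were C57BL/6J, BXD81, BXD66, BXD87, BXD44, BXD70, BXD61, BXD96, BXD69, BXD71, BXD99 and BXD64, in order of their score. The weak responders, from the highest score down, were BXD84, BXD68, BXD80, BXD103, BXD65, BXD97, BXD85, BXD100, BXD49, BXD73, BXD56 and BXD98. The other parent, DBA/2J, had a score of 0.183 and fell in the middle, so only C57BL/6J stood at an end of the range, and it had the highest score of all. Scores of strong strains ran from 0.318 to 0.511 with a median of 0.432, and those of weak strains from -0.252 to 0.142 with a median of 0.0857. The mean was 0.421 ± 0.067 (SD, n = 12) in strong, 0.215 ± 0.055 (SD, n = 13) in middle and 0.0128 ± 0.137 (SD, n = 12) in weak strains. The groups were cut from a continuous range: the last strong strain, BXD64, scored 0.3178 and the next strain, BXD43, 0.3165, while the first weak strain, BXD84, scored 0.1418 and its neighbour BXD90 0.1425. Only in 5 strains, BXD100, BXD49, BXD73, BXD56 and BXD98, was the score below 0, all of them weak.

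**Figure D1:**
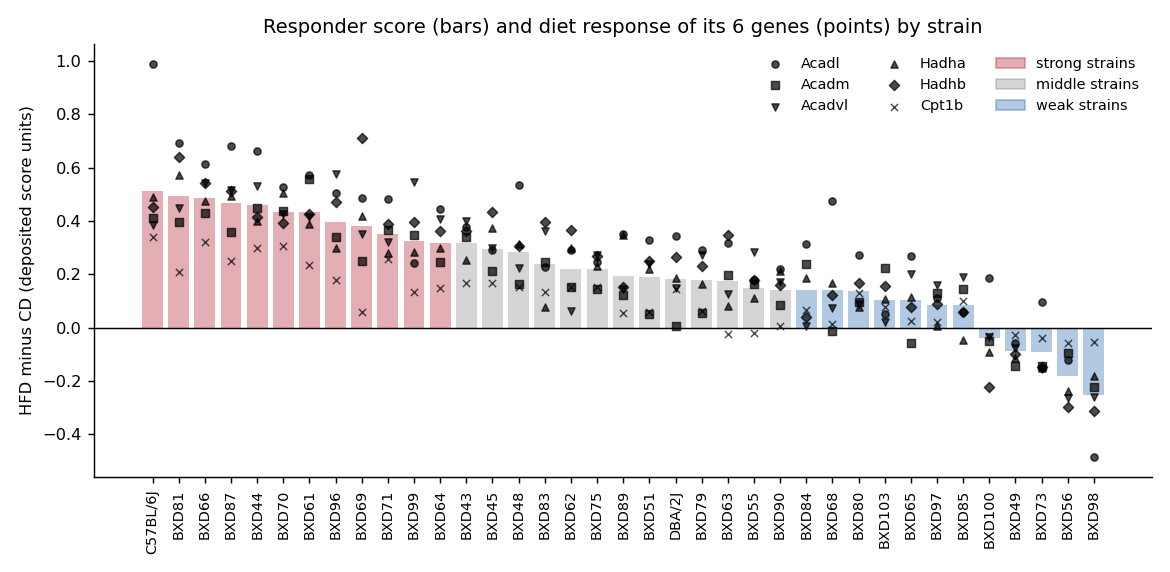
Responder score (bars) and HFD minus CD value of each of the 6 score genes (points), in units of the deposited score, for the 37 strains with both diets. The scores fell from 0.511 in C57BL/6J to -0.252 in BXD98 with no gap at either group border.

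Responses of all 6 genes were above 0 in all 12 strong strains, whereas in weak strains between 5 and 9 of 12 were, depending on the gene. Acadl had the widest responses, from 0.244 to 0.990 in strong strains and from -0.486 to 0.474 in weak strains, and the groups overlapped. Hadhb ranged from 0.362 to 0.711 in strong strains and from -0.311 to 0.166 in weak strains with no overlap. For Cpt1b, the smallest of the 6, responses lay between 0.059 and 0.340 in strong strains and between -0.059 and 0.130 in weak strains. Acadm, Acadvl and Hadha likewise did not overlap. The mean differences ran from 0.209 for Cpt1b to 0.506 for Hadhb.

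In the 6 score genes, strong and weak strains differed more on chow than on HFD. The mean CD level of the 6 genes was 12.26 ± 0.16 (SD, n = 12) in strong strains, where it lay between 12.06 and 12.53, and 12.56 ± 0.14 (SD, n = 12) in weak strains, where it lay between 12.37 and 12.78. Over all pairs of a strong with a weak strain, the strong strain had the higher CD level in only 7.64%. On HFD the levels were 12.68 ± 0.12 in strong and 12.57 ± 0.19 in weak strains (SD, n = 12 each), and the strong strain was the higher in 68.8% of pairs. Of the difference of 0.408 in score, 0.295 thus lay in a lower CD level of the strong strains and 0.113 in a higher HFD level. The strains were ranked on these same CD and HFD values. A lower CD level and a higher HFD level in strong strains are therefore partly built into the choice. Over the 37 strains the SD of this level was 0.182 on CD and 0.147 on HFD, and the split was not tested. Middle strains stood between on CD at 12.34 ± 0.10 (SD, n = 13), but at 12.55 ± 0.09 on HFD they had the lowest mean of the 3 groups.

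**Figure D2:**
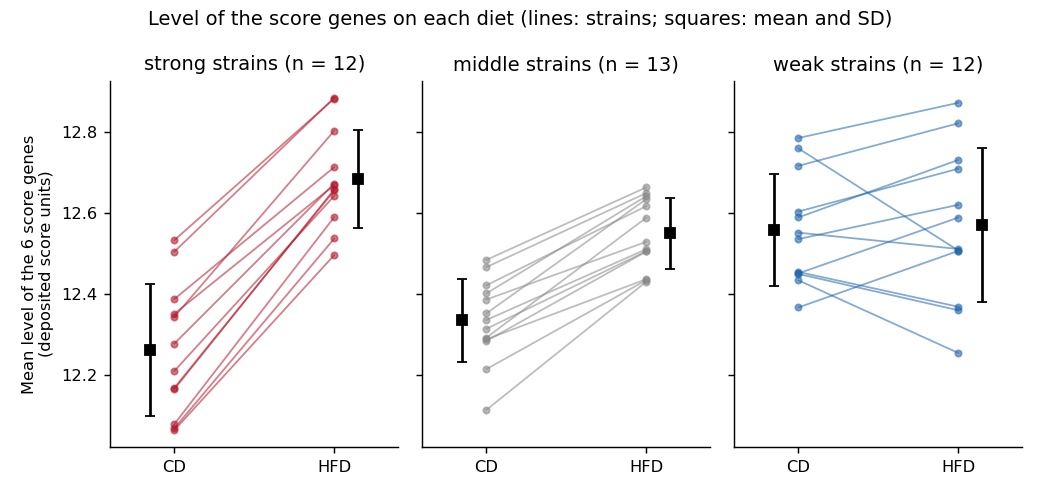
Mean level of the 6 score genes on CD and HFD (vertical axis, units of the deposited score) with 1 line per strain and, as black squares with bars, the mean and SD of each group. The strong strains began lower on CD, at 12.26 on average against 12.56 in weak strains, and ended slightly above them on HFD.

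For the other genes, the share of all strong-weak pairs of strains in which the strong strain had the larger response was used as a measure of separation. A gene was called set apart where this share was at least 80% or at most 20%. Of 22329 named genes outside the score, 572 (2.56%) were set apart with a larger response in strong strains and 247 (1.11%) with a smaller one. The median difference over all of them was -0.01 units, and 90% lay between -0.17 and 0.17 (the 5th and 95th percentiles), whereas 71 genes differed by at least 0.5 units upward and 6 downward. In 14 genes (0.0627%) every strong strain had a larger response than every weak strain, and in none (0%) the reverse. The counts depend on the size of the groups, with 223 genes upward and 36 downward in 18 against 18 strains.

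Those 14 genes, picked because they did not overlap, included several with a role in mitochondria and oxidative muscle. Acat1, Decr1 and Ech1 act in fat and ketone breakdown, Esrrb and Esrrg encode estrogen-related receptors, Ckmt2 the sarcomeric mitochondrial creatine kinase, Ldhb the lactate dehydrogenase subunit of oxidative muscle, Casq2 the calsequestrin of slow fibres and Mrpl14 a mitochondrial ribosomal protein. The other 5 were Tmem65, Dnajb4, Prkg1, Tm6sf1 and Inpp4b. Their differences ran from 0.33 for Acat1 to 1.07 for Casq2. In each of the 14 the strong strains had the lower mean on CD and the higher mean on HFD.

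Most of the other genes of mitochondrial beta oxidation followed the score. Of 22 listed genes, 16 were set apart with a larger response in strong strains and none with a smaller one, against 2.56% and 1.11% of all genes, and the median difference was 0.33. Averaged over the list, the response was 0.358 ± 0.079 in strong and 0.0528 ± 0.110 in weak strains (SD, n = 12 each), and the strong strain had the larger value in 99.3% of pairs. The genes of this list were chosen as partners of those that defined the groups, so their direction is not independent evidence.

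Ech1, an isomerase for unsaturated fatty acids, had responses from 0.630 to 1.175 with a median of 0.812 in strong strains and from -0.411 to 0.514 with a median of 0.320 in weak strains. Decr1, the dienoyl-CoA reductase that also serves unsaturated chains, lay between 0.567 and 0.941 in strong and between -0.465 and 0.542 in weak strains. Neither gene overlapped between the groups, and both had responses above 0 in 11 of 12 weak strains. Acaa2, the mitochondrial thiolase, had the largest difference of the list at 0.59 (SE 0.08), with responses of 0.688 ± 0.199 in strong and 0.102 ± 0.214 in weak strains. In Acat1, the acetoacetyl-CoA thiolase, every strong strain lay between 0.233 and 0.455 and every weak strain between -0.200 and 0.208.

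Of the listed genes outside the score that handle carnitine, 3 were set apart, against 2.56% of all genes. Crat, the carnitine acetyltransferase, with a difference of 0.08 (SE 0.04), was not, nor were Cpt1a and the peroxisomal Crot. Cpt2, which releases the fatty acid inside the mitochondrion, differed by 0.39 (SE 0.07), Slc25a20, the carnitine-acylcarnitine carrier of the inner membrane, by 0.36 (SE 0.06) and Slc22a5, which takes up carnitine from blood, by 0.25 (SE 0.08). The electron acceptors of beta oxidation were also set apart: Etfdh differed by 0.45 (SE 0.06), Etfa by 0.33 (SE 0.06) and Etfb by 0.23 (SE 0.06). Cpt1a, the liver form of carnitine palmitoyltransferase 1, had a difference of 0.04 (SE 0.13) and was not set apart, nor was Acad10 at 0.01 (SE 0.09). The difference between the muscle and liver forms of the transferase was not tested.

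Uptake and storage genes were divided. Of 20 genes for fatty acid uptake, storage and fasting targets of PPAR receptors, 6 were set apart with a larger response in strong strains and none with a smaller one, against 2.56% and 1.11% of all genes, and the median difference was 0.17. After the slow fibre adjustment described below, 2 of the 20 were set apart. Fabp3, the fatty acid binding protein of heart and muscle, had responses from 0.340 to 1.13 with a median of 0.669 in strong strains and from -0.422 to 0.347 with a median of 0.132 in weak strains. The strong strain had the larger response in 99.3% of pairs, and the ranges overlapped only between 0.340 and 0.347. Plin5, which coats lipid droplets at mitochondria, the uptake genes Cd36 and Slc27a1, Lpl, which frees fatty acids from lipoproteins, and the thioesterase Acot13 were set apart too, with differences between 0.18 and 0.45. Gpd1 and Vldlr had the smallest differences of the list, -0.19 and -0.18, and were not set apart.

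Pdk4, Ucp3 and Angptl4 of the same list, singled out after their values were seen, were not set apart. Pdk4, the kinase that closes pyruvate dehydrogenase during fasting, had a mean response of 0.00967 ± 0.333 in strong and -0.00142 ± 0.355 in weak strains (SD, n = 12 each), with the strong strain higher in 57.6% of pairs. Ucp3, an uncoupling protein raised by fasting in muscle, had a difference of -0.08 (SE 0.23), with 50.7% of pairs higher in strong. For Angptl4, an inhibitor of lipoprotein lipase, the difference was 0.38 (SE 0.23) and the share 74.3%. Spread between strains within a group exceeded the difference between groups in all 3.

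Of 20 regulators of mitochondrial and fat metabolism, 4 were set apart, all with a larger response in strong strains, against 2.56% of all genes, and the median difference was 0.07. Of these 20 genes 2 were set apart after the slow fibre adjustment. Esrrg had responses from -0.088 to 0.510 with a median of 0.337 in strong strains, and from -0.654 to -0.098 with a median of -0.326 in weak strains, where all 12 were below 0. Esrrb ranged from 0.208 to 0.614 in strong and from -0.119 to 0.157 in weak strains. Neither receptor overlapped. On CD alone, Esrrg was lower in strong strains by 0.50 on average, and on HFD it was higher by 0.13.

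Ppara, the fatty acid receptor that drives beta oxidation genes, differed by 0.56 (SE 0.09), with 10 of 12 responses above 0 in strong strains and 1 of 12 in weak strains. Ppargc1a differed by 0.22 (SE 0.12) with 81.2% of pairs higher in strong strains, and 1 strong strain had a response of -0.745. Of 2 regulators singled out after their values were seen, Esrra, the remaining estrogen-related receptor, had a difference of 0.05 (SE 0.07), and Ppard, the PPAR receptor that is prominent in muscle, of -0.06 (SE 0.05), and neither was set apart. Rxra and Prkaa2 were at the lower end of the list with differences of -0.07 and -0.06.

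Of 16 peroxisomal genes 5 were set apart, all larger in strong strains, against 2.56% of all genes, with a median difference of 0.13. After the slow fibre adjustment 1 of the 16 was. Ephx2, an epoxide hydrolase of lipid mediators, differed by 0.67 (SE 0.11) and Pex11a, a factor of peroxisome division, by 0.46 (SE 0.06). Hsd17b4, Abcd3 and Acox3 were set apart by 0.27, 0.19 and 0.14. Acaa1b and Crot had differences of -0.16 and -0.09 and were not.

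Downstream of beta oxidation, 12 of 18 citric acid cycle genes were set apart with a larger response in strong strains and none with a smaller one, against 2.56% and 1.11% of all genes, and the median difference was 0.13. The list mean had no overlap between the groups, at 0.157 ± 0.044 in strong and -0.0232 ± 0.051 in weak strains (SD, n = 12 each). Idh2, the NADP-dependent isocitrate dehydrogenase of mitochondria, stood out with responses from -0.092 to 0.766 in strong strains and from -0.947 to -0.014 in weak strains. All 12 weak strains were below 0 and 11 of 12 strong strains above it, a difference of 0.80 (SE 0.10). Sdhb followed at 0.32 (SE 0.06). Mdh2 and Idh3a had the smallest differences, 0.06 and 0.07, and were not set apart.

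In the respiratory chain, 30 of 84 subunit genes were set apart, all larger in strong strains, against 2.56% of all genes, with a median difference of 0.14. The largest differences were those of Cox6a1 (0.32, SE 0.08) and Ndufb3 (0.32, SE 0.08), and Cox8c and Cox6b2 had the smallest at -0.20 and -0.08. Of 74 mitochondrial ribosome genes 9 were set apart, also larger in strong strains, with a median difference of 0.10, and 0 of 74 after the slow fibre adjustment. Mrpl14 led them, with responses between 0.040 and 0.522 in strong strains and between -0.451 and -0.040 in weak strains. Branched chain amino acid breakdown had 1 gene of 17 set apart, Hibch at 0.16 (SE 0.05).

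**Figure D3:**
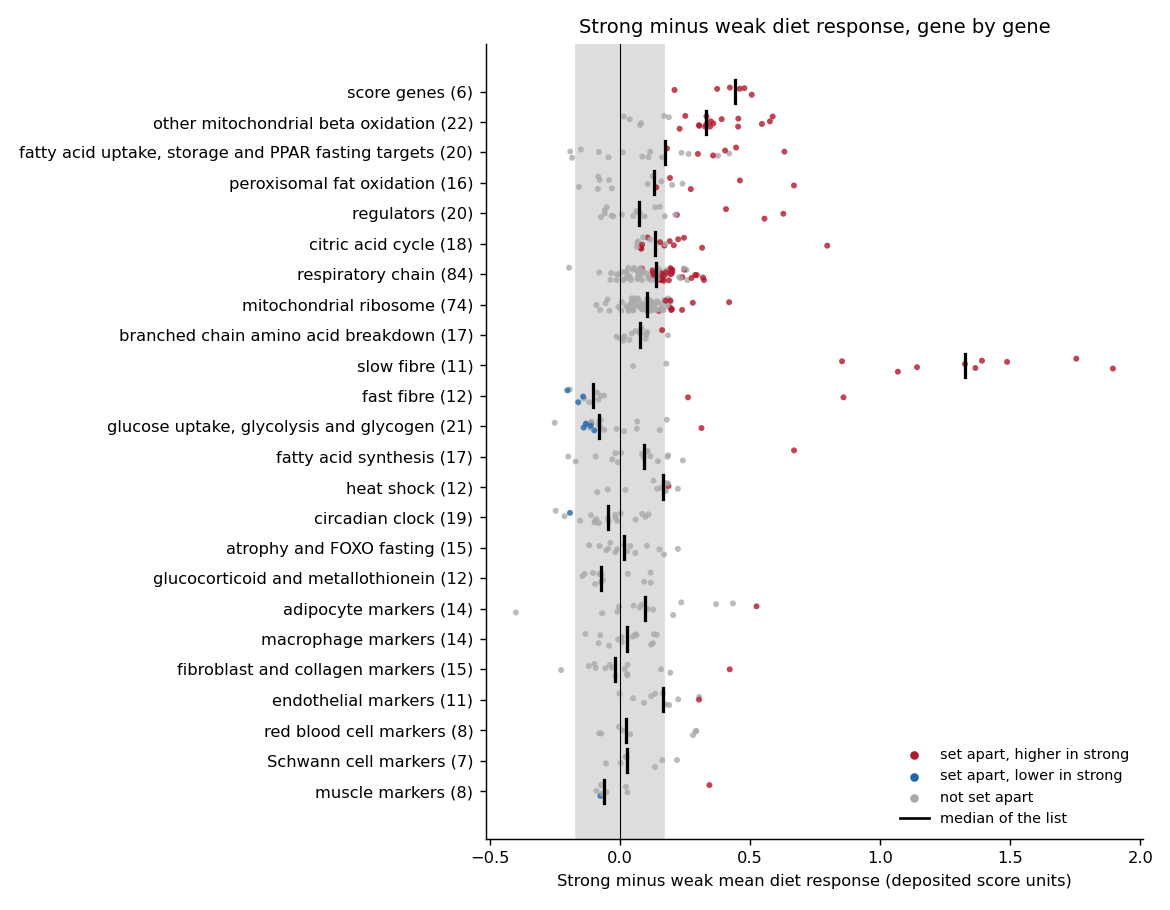
Strong minus weak difference in mean diet response (horizontal axis, units of the deposited score) for each gene of 24 lists, with the number of genes in parentheses, the list median as a black line and the 5th to 95th percentile of all named genes outside the score in grey. The slow fibre list had the highest median, 1.33, and 16 of 22 other beta oxidation genes were set apart upward.

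The 9 slow fibre genes that were set apart differed by between 0.85 (Tnnt1) and 1.89 (Myl3), above Ephx2 at 0.67, the largest difference among the listed genes of mitochondrial and peroxisomal fat oxidation. Slow fibres are the oxidative, fatigue-resistant type and are few in mouse quadriceps. All 9, of 11 listed, had the larger response in strong strains, against 2.56% of all genes, and the median difference of the list was 1.33, while Tpm3 at 0.18 and Myh7b at 0.05 were not set apart. Of the 10 genes with the largest differences among set-apart genes above the median level of all genes, 7 were members of the slow fibre list, Myl3, Myl2, Myoz2, Tnnc1, Myh7, Tnni1 and Atp2a2. The other 3 were Csrp3, which encodes the muscle LIM protein, the stretch-responsive Ankrd2 and BC048679.

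Myl3, the slow essential light chain of myosin, had responses from -0.299 to 2.06 with a median of 0.545 in strong strains and from -2.53 to 0.2 with a median of -1.02 in weak strains. Myh7, the slow myosin heavy chain, lay between -0.498 and 2.44 in strong and between -2.41 and 1.35 in weak strains, so the groups overlapped although the mean difference was 1.37 (SE 0.38). Casq2 alone in this list had no overlap, with strong strains between 0.225 and 1.17 and weak strains between -1.09 and 0.198. Myoz2, the calsarcin of slow fibres, was above 0 in 11 of 12 strong strains and 1 of 12 weak strains.

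The slow fibre list, too, differed mainly on chow. Its mean level on CD was 9.29 ± 0.50 in strong and 10.11 ± 0.57 in weak strains, and on HFD 9.80 ± 0.51 in strong and 9.48 ± 0.49 in weak strains (SD, n = 12 each). The mean response was 0.509 ± 0.489 in strong strains, of which 11 were above 0, and -0.628 ± 0.587 in weak strains, of which 3 were. In the middle strains it was -0.0941 ± 0.620 (SD, n = 13).

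Of 12 fast fibre genes 2 were set apart upward and 3 downward, against 2.56% and 1.11% of all genes, and 7 were not set apart. Myh2, the myosin of the fast oxidative type, had responses from 0 to 1.74 in strong strains and from -1.47 to 0.245 in weak strains, a difference of 0.86 (SE 0.19). Myh1 was set apart upward as well, by 0.26 (SE 0.09). Pvalb, the calcium buffer of fast fibres, Actn3 and Casq1 were set apart downward by -0.16, -0.14 and -0.20. All 12 weak strains had Pvalb responses above 0, between 0.029 and 0.267, against 5 of 12 strong strains. Myoglobin (Mb), the oxygen store of oxidative fibres, was set apart among the muscle markers with a difference of 0.34 and 94.8% of pairs higher in strong strains, and desmin (Des) downward by -0.08.

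**Figure D4:**
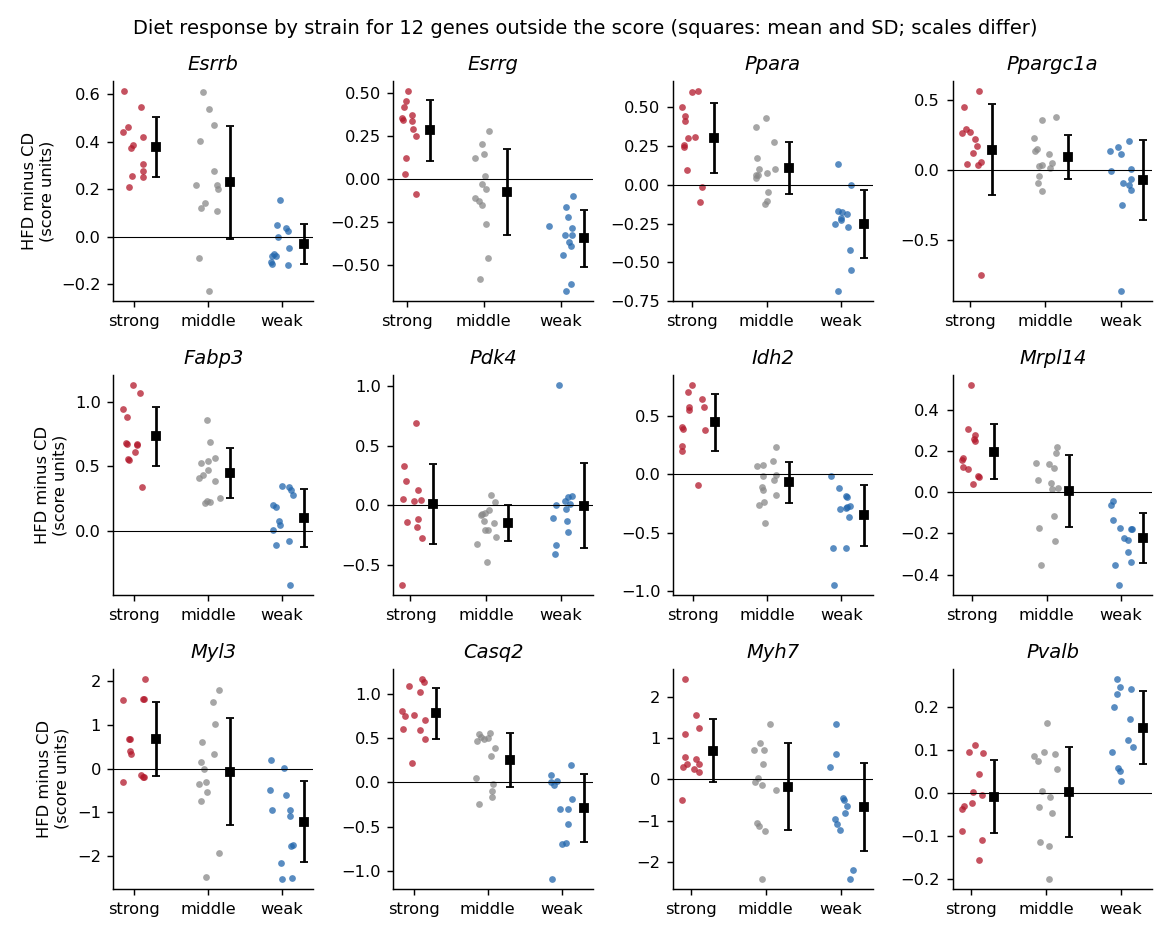
HFD minus CD value per strain (vertical axis, units of the deposited score, scale differing by panel) of 12 genes outside the score in 12 strong, 13 middle and 12 weak strains, with the mean and SD as squares with bars. Esrrb, Esrrg, Mrpl14 and Casq2 did not overlap between strong and weak strains, whereas Pdk4 overlapped throughout.

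Because the slow fibre genes moved with the score, responses were also adjusted for the mean response of the slow fibre list by a straight line over the 37 strains, an alternative chosen after the data had been seen. The difference in responder score was then 0.207 rather than 0.408, and the median difference of the other beta oxidation genes 0.17 rather than 0.33, with 9 of 22 set apart. Set-apart genes numbered 92 upward and 26 downward, and 77 of the 92 were also among the 572. Ech1 differed by 0.33 after adjustment, Decr1 by 0.29, Idh2 by 0.31, Esrrb by 0.18 and Ppara by 0.25, and each of these was still set apart. Esrrg at 0.23 with 79.2% of pairs, Lpl at 0.20 with 73.6% and Cd36 at 0.19 with 65.3% no longer were. In the respiratory chain 1 of 84 genes and in the citric acid cycle 3 of 18 were set apart, and in the fast fibre list 0 of 12. Whether the slow fibre genes had a part in the other differences was not tested.

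**Figure D5:**
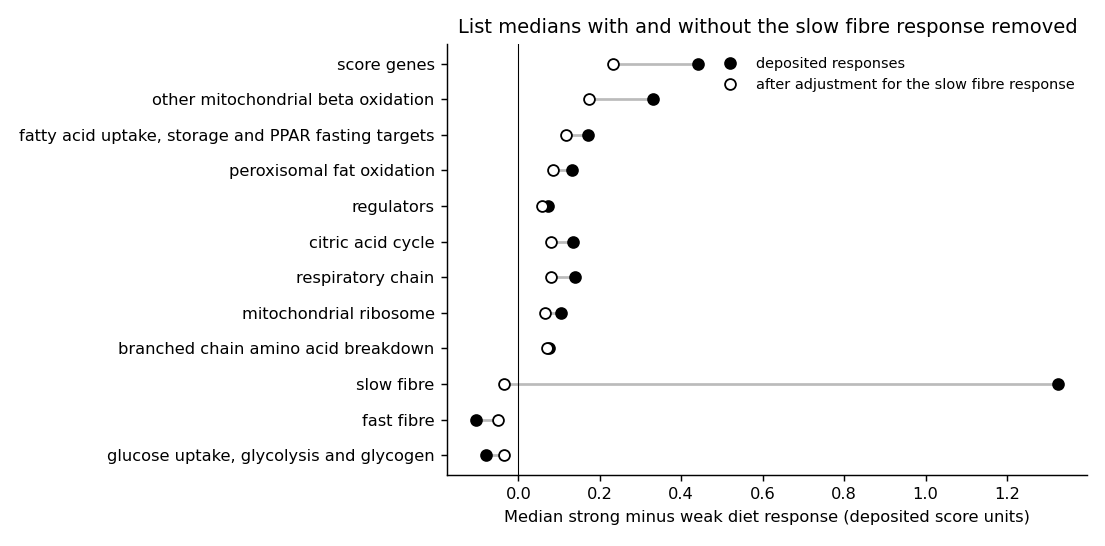
Median strong minus weak difference in diet response (units of the deposited score) of 12 gene lists, from the deposited values (filled) and after the mean slow fibre response had been regressed out over 37 strains (open). The median of the other beta oxidation genes was 0.33 before and 0.17 after, and that of the slow fibre list -0.04 after.

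Fewer genes had smaller responses in strong strains, and they formed no large group among the lists. Of 21 genes of glucose uptake, glycolysis and glycogen, 5 were set apart downward, namely Phka1, Ldha, Pygm, Gpi1 and Pfkm, with differences between -0.14 and -0.10, against 1.11% of all genes. None of the 21 was set apart in either direction after the slow fibre adjustment. Gbe1, the glycogen branching enzyme, was set apart upward by 0.31 (SE 0.07). The list median was -0.08. Thus Ldhb, the oxidative subunit of lactate dehydrogenase, and Ldha, the glycolytic one, had differences of opposite sign, 0.98 (SE 0.15) and -0.13 (SE 0.04). The contrast between both genes was not tested.

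Among set-apart genes above the median level, the 10 with the largest downward differences were Htra4, Cbr2, LOC675602, Smox, Prkcd, Slc2a3, Mpp3, Katnal2, Gm10750 and Mir341. Htra4, a serine protease, had responses from -1.44 to 0.492 in strong strains and from -0.240 to 0.864 in weak strains, a difference of -0.66 (SE 0.20). Smox encodes spermine oxidase and differed by -0.45 (SE 0.14). For Slc2a3, a glucose transporter, the difference was -0.40 (SE 0.10), with 10 of 12 responses below 0 in strong strains and a median of 0.074 in weak strains. Prkcd, a protein kinase C, differed by -0.43 (SE 0.13). None of the 10 separated the groups without overlap.

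The counts in other lists can be read against the 2.56% of all genes set apart upward and the 1.11% set apart downward. Of 17 fatty acid synthesis genes only Dgat2, the last step of triglyceride synthesis, was set apart, by 0.67 (SE 0.16), and Scd1 had a difference of -0.20 (SE 0.26). No gene of 15 in the list of muscle atrophy and FOXO fasting targets, and none of 12 glucocorticoid-induced and metallothionein genes, was set apart. Trim63, a ubiquitin ligase of muscle atrophy, had a difference of -0.12 (SE 0.26). Of 19 clock genes 1 was set apart, Rora, by -0.19 (SE 0.06), and of 12 heat shock genes 1, the mitochondrial chaperone Hspd1, by 0.19. Olfactory receptor genes, with list means between 5.97 and 6.27 units on the 48 arrays of both groups, had 6 of 1097 set apart upward and 17 downward. Their median difference was -0.03.

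Markers of other cells were compared in the same way. The 8 muscle markers had a list mean between 14.2 and 14.5 units on the 48 arrays of both groups, against 8 for the average probeset. Adipocyte markers had mean responses of 0.398 ± 0.324 in strong and 0.275 ± 0.349 in weak strains (SD, n = 12 each), with 1 of 14, Adig, set apart and a median difference of 0.09. On CD their list mean lay between 8.75 and 9.65 in strong and between 9.02 and 10.1 in weak strains. Against the same 2.56% and 1.11% of all genes, none of 14 macrophage, 8 red blood cell or 7 Schwann cell markers was set apart, and 1 each of 15 fibroblast (Postn, 0.42) and 11 endothelial markers (Emcn, 0.30) was. The endothelial list had a median difference of 0.16, and its part in the results was not tested.

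Array batches, which the labels define by the time of RNA extraction and hybridisation, were spread over both groups. Both arrays were in batch 1 for 5 strong and 2 weak strains, both in batch 2 for 6 strong and 7 weak strains, and in different batches for 1 strong and 3 weak strains. A two-sided Fisher exact test of these counts gave p = 0.303. Among strains with both arrays in batch 2, 6 strong against 7 weak, the score difference was 0.415, the median difference of the other beta oxidation genes 0.32 and that of the slow fibre genes 1.10. With both arrays in batch 1, 5 strong against 2 weak, they were 0.332, 0.28 and 0.86. Centring the responses within each batch arrangement before ranking kept 11 of the 12 strong and 8 of the 12 weak strains, and the score difference was then 0.400. Strains with arrays in different batches formed 1 arrangement, whichever diet was in batch 1. A batch effect enters their responses with opposite signs, so centring could not remove it from those strains.

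The level of a gene averaged over both diets is a different measure from the HFD minus CD difference, and strong and weak strains were tested on it. It is independent of the difference only as far as both diets have the same spread, and for the score genes the SD over 37 strains of their mean level was 0.182 on CD and 0.147 on HFD. No gene of 22335 (0%) passed an adjusted p of 0.05 in limma with the batch arrangement as a term, and 924 (4.14%) had an unadjusted p below 0.05. With all 48 arrays and the strain as a block, a fit whose limit is described below, 17 genes passed. In the fit without C57BL/6J and DBA/2J, 1 gene passed. The methods' t-test gave 0 after Benjamini-Hochberg adjustment, with 1069 unadjusted. The lowest p-values belonged to H2-D1, a class I histocompatibility gene, Zbtb37 and Casc5, with level differences of -0.34 (SE 0.06, adjusted p = 0.104), -0.30 (SE 0.06, adjusted p = 0.252) and -0.24 (SE 0.05, adjusted p = 0.312). H2-D1 was at 10.89 ± 0.13 in strong and 11.21 ± 0.15 in weak strains.

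In this averaged level the 6 score genes, which were among the 22335 genes fitted, differed by between -0.13 and -0.01. Their p-values are not given because the choice of strains used their values and their spread was larger on CD. Slow fibre genes had a median level difference of -0.27, and their spread was also larger on CD, with a median SD of 0.719 against 0.589 on HFD, so this difference is not independent of the diet response either. Among the 12 glucocorticoid-induced and metallothionein genes the median level difference was 0.16, all 12 were higher in strong strains, and 5 (Fkbp5, Tsc22d3, Sgk1, Pik3r1 and Cebpd, named after their values were seen) had an unadjusted p below 0.05, against 4.14% of all genes, but the smallest adjusted p was 0.814. Fkbp5, a classic glucocorticoid target, stood at 9.53 ± 0.35 in strong and 9.19 ± 0.36 in weak strains (SD, n = 12 each).

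Inherited differences were approached through allele-like genes, whose levels fell into 2 clusters of strains that held on both diets. Levels of this kind often mark a nearby variant, or a difference in sequence under the probes, and the table gives no genotypes. Of 133 such genes none (0%) passed a two-sided Fisher exact test of cluster against group after adjustment, and 7 (5.26%) had an unadjusted p below 0.05. Tcea3, an elongation factor gene, had 3 of 12 strong and 10 of 12 weak strains in its high cluster (Fisher exact p = 0.0123, adjusted p = 0.544), as did Creg1 and Sft2d2 with the same counts. Npl had 7 strong and 1 weak strain in its high cluster (Fisher exact p = 0.0272, adjusted p = 0.708). Next came Gpr75 with 2 and 8 and Fbxw11 with 10 and 4, both at p = 0.0361 by the exact test (adjusted p = 0.708). Creg1 and Sft2d2 had the same cluster sizes and cluster mean scores as each other, so they stand for 1 split of strains. So do Gpr75 and Fbxw11, with the high and low clusters exchanged. Of these genes, Sft2d2 (-0.55, adjusted p = 0.0141), Tcea3 (-0.40, adjusted p = 0.0213), Gpr75 (-0.90, adjusted p = 0.0432) and Creg1 (-0.54, adjusted p = 0.0432) were among the 17 called in level by limma with strain as a block. That fit used 1 within-strain correlation, 0.163, for all genes, although for allele-like genes both arrays lay on the same side in at least 35 of 37 strains by definition. Its p-values for such genes are therefore too small. Over all 37 strains, the mean score was 0.141 ± 0.209 in the 19 strains of the high Tcea3 cluster and 0.295 ± 0.130 in the 18 of the low cluster (SD), with an adjusted permutation p of 0.532.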

How the data were processed

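Quadriceps RNA pools of male BXD mice and both parental strains were hybridised to Affymetrix Mouse Gene 1.0 ST arrays. The authors deposited 1 table with a score for each of 35556 probesets, and the submitters' processing notes name Affymetrix Expression Console. All arrays shared a mean of 8 and an SD of 2, while their medians lay between 7.783 and 7.922. Log base, summarization, background method and genome build are not given in the sources used here, so differences are given in units of the score and not as folds. Arrays carry no counting depth, and their number limits the precision. The correlation between arrays ranged from 0.961 to 0.992. Of these probesets 26221 carried a symbol, which gave 22335 named genes, and 2013 genes had several probesets, of which the one with the highest mean over 79 arrays was used. Of the symbols, 18783 were current in the RefSeq table of GRCm38.p6 and 2420 were synonyms.

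The strains, gene lists and tests were chosen with earlier results of these data known. The list genes Map1lc3b, Hbb-b2 and Ahsp were not analysed here. Genes named were the score genes, the 10 largest differences each way among set-apart genes above the median level, any set-apart list member and the 2 members at each end of a list, and, for tests without calls, the 3 (levels) or 5 (allele-like) lowest p. Also named were the 14 genes without overlap, Fbxw11, which tied with Gpr75, and some other list members, among them Crat, Pdk4, Ucp3, Angptl4, Esrra and Ppard. Levels averaged over diets were tested with limma 3.58.1 in R 4.3.3 (lmFit, eBayes, Benjamini-Hochberg adjustment over all named genes, adjusted p below 0.05). Allele-like genes were those for which a mixture of 2 normals lowered the BIC by at least 10, with Ashman's D over 3, at least 8 strains in each cluster and at least 35 of 37 strains on the same side on both diets. Other steps used Python 3.11.15 with scipy 1.17.1, and each test was checked on simulated data. The permutation test over 37 strains used 100000 draws and was two-sided. The alternatives covered the batches, single strains, array centring and normalization, the probeset choice, the size of the groups and the genes of the score.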

Additional observations from a re-analysis of the deposited data

Results flagged for a closer look

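In 2 of the 22329 genes outside the score, both among the 14 without overlap, every strong strain moved one way and every weak strain the other. Ldhb had responses above 0 in 12 of 12 strong strains and in 0 of 12 weak strains, with a difference of 0.984 units. Mrpl14 did the same with a difference of 0.419 units. The strains were chosen on the same contrast, so these differences were not tested.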

How the results depend on the processing

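The responder score difference of 0.408 ranged from 0.303 (18 against 18 strains) to 0.480 (9 against 9) over the other alternatives and was 0.207 after the slow fibre adjustment. The median difference of the other beta oxidation genes was 0.214 with 18 against 18 strains and 0.173 after that adjustment. Set-apart genes numbered 819 in all, 572 upward and 247 downward. They numbered 9766 (4565 and 5201) with both arrays in batch 1, where only 10 pairs of strains remain and the threshold is met easily, and 1962 (1247 and 715) in batch 2. With both arrays in 1 batch and 9 against 9 strains there were 1348 (932 and 416), and with 9 against 9 of all strains 1416, of which 574 were downward. With 18 against 18 strains there were 259 (223 and 36), and 118 (92 and 26) after the slow fibre adjustment. Among the 11162 genes outside the score above the median level, 509 were set apart upward and 134 downward. The causes of these changes in count were not tested. Centring responses within the batch arrangement kept 11 of 12 strong but only 8 of 12 weak strains, with 449 genes set apart upward, 340 of them among the 572, and 205 downward. Leaving out BXD63, or Cpt1b from the score, changed neither group.

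After the slow fibre adjustment the differences of Myh7 (-0.300), Tnnc1 (-0.211), Tnnt1 (-0.180), Tnni1 (-0.0901), Atp2a2 (-0.0393) and Myl2 (-0.00165), all members of the adjusting list, changed sign. In batch 1 alone the response difference of Acox3 (-0.0012) and the response difference of Atp5f1 (-0.0163) did so, and that of Acox3 (-0.0235) also with the mean of all probesets.

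Levels averaged over diets gave 1 called gene without C57BL/6J and DBA/2J. With all 48 arrays and strain as a replicate block, 17 genes were called, 3 higher and 14 lower in strong strains, led by H2-D1 (adjusted p = 0.00205 in limma). Diets of a strain were paired by the strain name, and 1 correlation within the block, 0.163, was used for all genes. Where both arrays of a strain agreed more closely than that, the p-values are too small. With the strain as the unit, the main fit called no gene, and its smallest adjusted p in limma was 0.104. No allele-like gene was called by the Fisher exact or permutation tests under any alternative run, whereas 4 of them were among the 17 called with the replicate block. Of these 4, Creg1 and Sft2d2 stand for 1 split of strains. The exact p for the batches was 1 with 18 against 18 strains.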
